A study of Arabidopsis thaliana with 72 samples.

Results

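The question was what an estradiol-inducible callose synthase still did to leaf RNA at 72 h that another inducible block of the same channels no longer did. RNA was sequenced from leaves of Arabidopsis thaliana in 3 genotypes. Here 12 of the 72 libraries were compared: icals3m leaves 72 h after estradiol, icals3m leaves 72 h after DMSO, PD-plug leaves 72 h after estradiol and PD-plug leaves 72 h after DMSO, with 3 libraries in each group. They were chosen by line and time alone. The icals3m line carries LexA::icals3m and the PD-plug line carries LexA::PD-Plug. Both constructs close plasmodesmata when estradiol is given, per the series' design text, and the wild type, Col-0, was treated in the same way. All plants were 5 weeks old and grew on plates with sucrose under 10 h of light at 22 °C. Estradiol (20 µM) and DMSO (0.1%) were each painted on both leaf sides with 0.01% Silwet, a wetting agent. Each library pools 2 leaves from 4 plants, so whole leaves of mixed cell types were measured, and fewer cells of a type and less RNA per cell cannot be told apart. The labels call the 3 libraries of a group biological replicates. Whether each line is 1 transformant is not given in the sources used here, so the effects of a construct and of its insertion cannot be told apart.

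Plasmodesmata are the membrane-lined channels through the cell wall that join neighbouring plant cells. Sugars, hormones, small RNAs and some proteins pass through them, and in the leaf they carry part of the path of sucrose from the photosynthetic mesophyll to the phloem. Callose, a glucan polymer laid down in the wall around the channel neck, narrows them. CALS3 (AT5G13000) is a callose synthase that acts at plasmodesmata, and icals3m is an inducible, overactive form of it.

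Both constructs were still on at 72 h, and both were well below their peak. The CALS3 gene, whose count includes the construct, had 1664, 1447 and 1682 CPM in icals3m estradiol leaves, against 276, 285 and 284 CPM in icals3m DMSO leaves. In PD-plug leaves it had 112, 111 and 121 CPM with estradiol, against 120.4, 113 and 120.4 CPM with DMSO. Every icals3m estradiol library stood above every other library, and the icals3m DMSO libraries stood above all PD-plug libraries. The log2 difference between the estradiol effects of the lines was 2.54 ± 0.098 (SE, adjusted p = 2.04e-29). CALS3 in icals3m leaves was 24.1 times the DMSO level at 12 h, 31.1 times at 24 h, 20.0 times at 48 h and 5.67 times at 72 h, and its estradiol level at 72 h was 28.8% of its peak. The PD-plug construct was followed through a row for the fluorescent protein mCherry, which is present in the authors' second count matrix alone. It had 3065, 3653 and 3499 CPM in PD-plug estradiol leaves at 72 h, against 7.15, 18.1 and 15.7 CPM in PD-plug DMSO leaves. The 72 h estradiol mean was 11.2% of its peak, against 68.1% at 48 h. CALS3 stood at 75.9% of its peak at 48 h. The time since each construct's peak and the kind of block differ together between the lines, so their parts in the difference between the lines cannot be told apart.

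**Figure D1:**
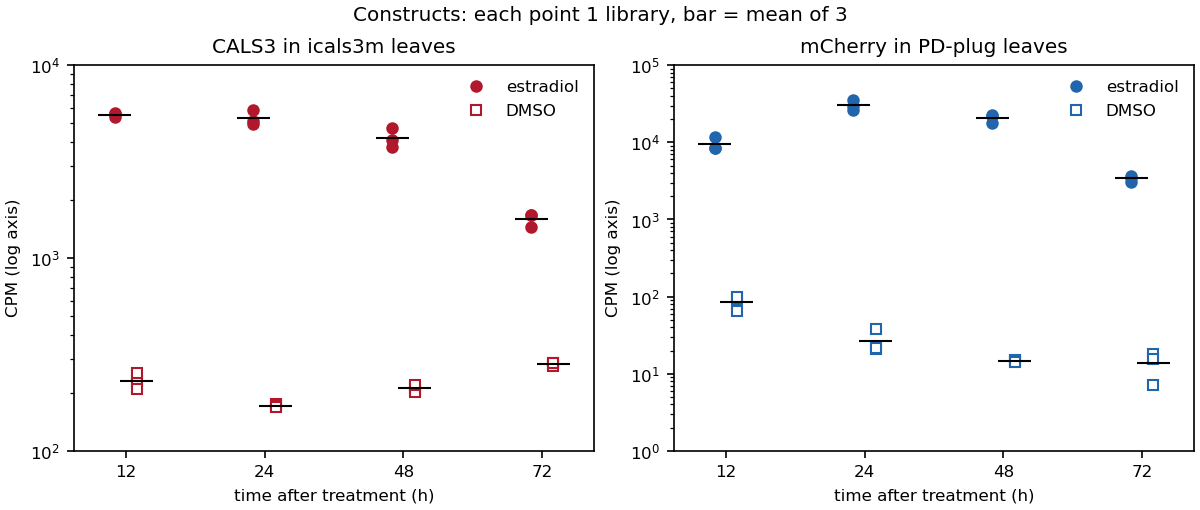
CPM (log axis) of CALS3 in icals3m leaves and of mCherry in PD-plug leaves at 12, 24, 48 and 72 h. Each point is 1 library, filled for estradiol and open for DMSO, and bars are means of 3; at 72 h both constructs had fallen, to 28.8% of peak for CALS3 and 11.2% for mCherry, and stayed above DMSO.

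The 12 libraries held 38037406 to 53418750 counts each, and a count of 3 was at most 0.0789 CPM. Replicates of a group correlated between 0.974 and 0.979 on log2 CPM. Adjusted p-values come from the quasi-likelihood test of edgeR and were adjusted by the Benjamini-Hochberg method over the 21241 genes tested, and a gene is called where its adjusted p is under 0.05. The effect of a line is the log2 ratio of estradiol to DMSO, and the difference is the effect in icals3m minus that in PD-plug. Estradiol alone did little at this time: 3 genes, or 0.0141% of those tested, were called in Col-0 at 72 h.

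At 72 h the icals3m effect was broad and the PD-plug effect was narrow. In icals3m leaves 4570 genes were called (21.5% of those tested), 2206 higher (10.4%) and 2364 lower (11.1%), against 562 genes in PD-plug leaves (2.65%), 296 higher (1.39%) and 266 lower (1.25%). Without the first PD-plug DMSO library 208 genes were called in PD-plug leaves. The median standard error of an effect was 0.150 in both lines. The difference itself was called for 1137 genes (5.35%), of which 477 were higher (2.25%) and 660 were lower (3.11%). It was at least 2-fold for 96 of the higher and 177 of the lower genes. Of the 1137 genes, 942 were also called in icals3m leaves in the direction of the difference and not in PD-plug leaves. In 25 genes the lines were called in opposite directions. These counts reuse the libraries of the difference and describe its make-up only. At 48 h, 72 of the 477 higher genes were called higher in PD-plug leaves (5.66% of all genes) and 63 lower (7.62%). Of the 660 lower genes, 161 were called lower in PD-plug leaves at 48 h (7.62% of all genes) and 30 higher (5.66%). The other 342 and 469 were not called there at 48 h, so most of the difference had no called PD-plug effect to fade. In 75 of the 1137 genes the DMSO libraries of the lines also differed, in the opposite direction (2.31% of all genes; 1.41% higher, 0.904% lower), so that part of the difference lay in the untreated level. Without the second PD-plug DMSO library 680 genes were called in the difference, and without the first icals3m estradiol library 695.

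**Figure D2:**
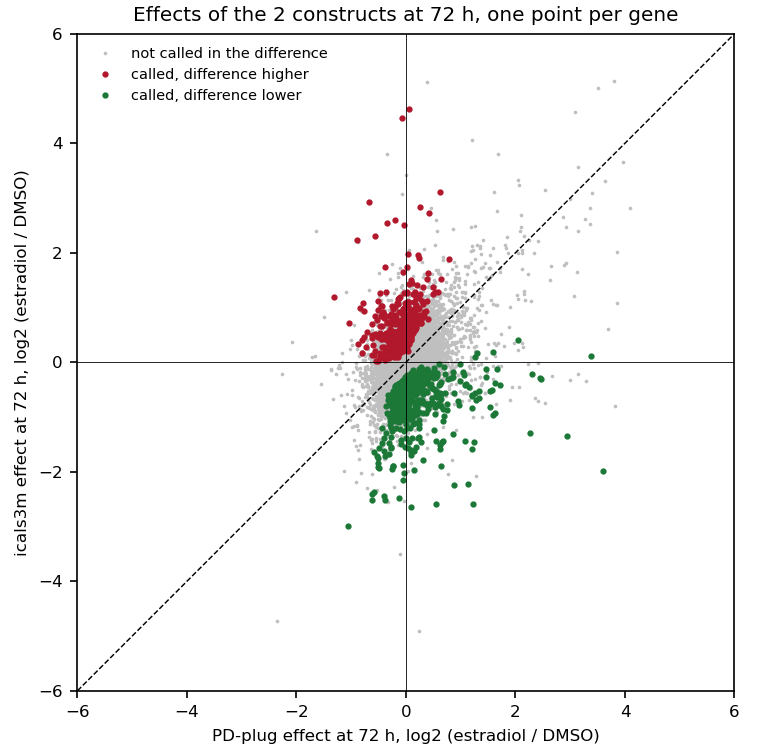
The icals3m effect (vertical, log2 estradiol over DMSO) against the PD-plug effect (horizontal) at 72 h for 17130 genes with a mean of at least 1 CPM, 6 of them outside the axes. Genes called higher (472 here) or lower (648 here) in the difference lie mostly along the vertical axis, where the PD-plug effect is near 0; the dashed line marks equal effects.

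The genes that both lines had changed a day earlier were followed to 72 h. At 48 h, 3888 genes were called in icals3m leaves (18.3%; 9.25% higher, 9.06% lower) and 2821 in PD-plug leaves (13.3%; 5.66% higher, 7.62% lower). Of these, 1158 were called in both lines in the same direction, 389 higher and 769 lower. Of these 1158, 572 (49.4%) were called again in icals3m leaves at 72 h with the same sign, and 79 (6.82%) in PD-plug leaves, 70 of them in both. Over all genes tested, 21.5% were called in icals3m leaves at 72 h (10.4% higher, 11.1% lower). In PD-plug leaves it was 2.65% (1.39% higher, 1.25% lower), so calls were more frequent in icals3m leaves over all genes as well. Without the first 72 h PD-plug DMSO library, 21 shared genes were called in PD-plug leaves at 72 h. The shared set was chosen on 48 h contrasts, so its 72 h effects come from other libraries. The spread of each gene was estimated over all 72 libraries, so a gene called at 48 h can also be easier to call at 72 h. The shares called at 72 h are thus not independent of the choice. Among the genes higher at 48 h, the median effect was 0.42 in icals3m and 0.39 in PD-plug leaves at 48 h, and 0.19 in icals3m and 0.040 in PD-plug leaves at 72 h. Among the genes lower at 48 h, it was -0.36 in icals3m and -0.36 in PD-plug leaves at 48 h, and -0.24 in icals3m and -0.068 in PD-plug leaves at 72 h. Over all genes tested the medians lay within 0.01 of 0. At 48 h the difference between lines was called in the direction of the shared effect for 18 of the 1158 genes, where 5.16% of all genes tested were called (2.69% higher, 2.46% lower). A low count there follows from choosing genes called alike in both lines. At 72 h it was called in that direction for 189 (16.3%) and in the opposite direction for 8, where 5.35% of all genes were called (2.25% higher, 3.11% lower). Without the first 72 h icals3m estradiol library it was called in the shared direction for 100 genes.

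Fading was tested as its own contrast, the effect at 72 h minus the effect at 48 h. It was called against the 48 h direction for 334 of the 1158 shared genes in icals3m leaves and 431 in PD-plug leaves, where all genes tested gave 2170 calls in icals3m leaves (10.2%; 5.37% higher, 4.85% lower) and 1418 in PD-plug leaves (6.68%; 4.16% higher, 2.51% lower). This contrast reuses the 48 h libraries that chose the set, which favours a move toward 0 in both lines. Col-0 leaves were not silent at 48 h either: 1417 genes were called there (6.67%; 2.48% higher, 4.19% lower), among them 147 of the 1158, 129 in the direction of the lines. One 48 h library stands apart, the first PD-plug estradiol replicate, whose total is 1.37 times that in the authors' second matrix where all other libraries lie between 1.90 and 2.07. Without it the shared set held 848 genes, 434 of them called in icals3m leaves at 72 h.

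**Figure D3:**
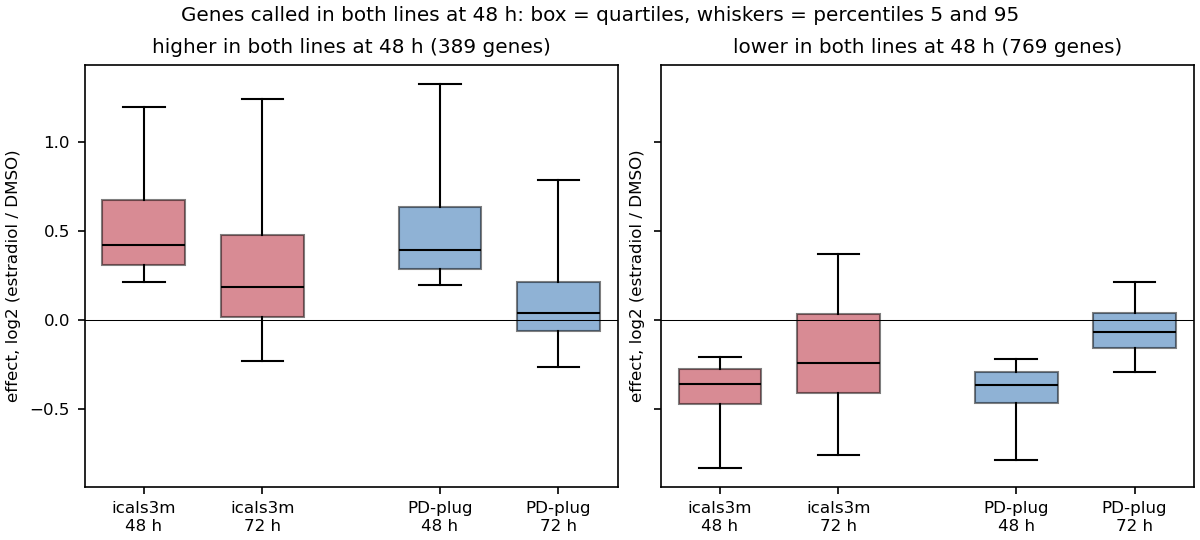
Effects (log2 estradiol over DMSO) of the genes called in both lines at 48 h, for 389 genes higher (left) and 769 lower (right), in icals3m and PD-plug leaves at 48 and 72 h. Boxes span the quartiles with the median, and whiskers the 5th and 95th percentiles; at 72 h the medians are 0.19 in icals3m and 0.040 in PD-plug leaves for the higher set, and -0.24 and -0.068 for the lower set.

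A strict reading of persistence in icals3m and fading in PD-plug gave 173 genes, 43 higher and 130 lower. They were shared at 48 h, called at 72 h in icals3m leaves and in the difference with the same sign, and not called in PD-plug leaves at 72 h. The rule uses the 72 h values, so their 72 h effects are described without a test. The median effects at 72 h were 0.66 in icals3m and 0.021 in PD-plug leaves for the 43 higher genes, and -0.50 and -0.11 for the 130 lower genes. In 168 of the 173 the estradiol libraries of the lines differed in the same direction, where 21.2% of all genes were called (10.4% higher, 10.9% lower). In 1 of the 173 the DMSO libraries differed the opposite way, where 2.31% of all genes were called (1.41% higher, 0.904% lower). Both counts reuse the 72 h libraries that chose the set, and the choice favours a gap between the estradiol libraries. They describe the make-up of the set and are no enrichment over all genes. The drop of the PD-plug effect after 48 h was itself called in 57 of the 173 (32.9%), so for most of them fading was not shown gene by gene. Among all 1158 shared genes it was called in 37.2%, so the set did not hold a larger share. By direction it was called in 46.5% of the 43 higher genes (31.6% of the shared higher genes). For the 130 lower genes it was 28.5% (40.1% of the shared lower genes). Over all genes tested the contrast was called in 6.68% (4.16% higher, 2.51% lower). The growth of the difference between lines after 48 h was called in 20, where 370 genes (1.74%; 0.73% higher, 1.01% lower) were called over all tested. In Col-0 leaves at 48 h, 13 of the 173 were called, 7 of them in the direction of the set (6 higher and 1 lower). The set held 89 genes without the first icals3m estradiol library, 90 without the second PD-plug DMSO library and 109 without the second icals3m DMSO library, and 130 of the 173 remained without the PD-plug 48 h library that stands apart.

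The lower persistent genes with the largest differences included a pair of expansins and a gibberellin-regulated peptide. The 8 lower genes named were picked by size and do not stand for the 130, whose median difference was -0.39. Members with smaller differences included the carbon fixation genes GAPA1, RCA and RBCS1A. Others carry ribosomal protein symbols, such as RPL15 with -0.41, RPL27 with -0.37 and RPS6 with -0.35. These 3 were picked after their values were seen, and the make-up of the set by function was not tested. AT2G10940 had 35.7, 43.2 and 71.5 CPM in icals3m estradiol leaves, against 169, 357 and 316 CPM in icals3m DMSO leaves. PD-plug estradiol leaves had 243, 212 and 174 CPM, against 275, 146 and 261 CPM in PD-plug DMSO leaves. All 3 icals3m estradiol libraries lay below the other 9, and the log2 difference was -2.36 ± 0.33 (SE, adjusted p = 2.64e-06). The annotation gives this gene no symbol, and the authors' second matrix holds other counts for it, with a log2 difference of 5.03 (adjusted p = 0.281). EXPA11 (AT1G20190), an expansin, which loosens cell walls, had 6.25, 6.18 and 7.82 CPM in icals3m estradiol leaves, against 36.6, 45.9 and 34.1 CPM in icals3m DMSO leaves. The PD-plug line had 32.4, 34.4 and 31.3 CPM with estradiol, against 47.8, 38.4 and 41.5 CPM with DMSO. Its icals3m estradiol libraries stood apart from all others, with a log2 difference of -2.14 ± 0.23 (SE, adjusted p = 3.51e-09). A second expansin, EXPA10 (AT1G26770), had 20.9, 29.2 and 25.4 CPM in icals3m estradiol leaves, against 92.9, 100.4 and 104 CPM in icals3m DMSO leaves. Its level in PD-plug leaves was 92.1, 96.8 and 87.7 CPM with estradiol, against 85.1, 92.0 and 73.7 CPM with DMSO. The icals3m estradiol libraries were again the lowest, and the other groups lay close together. The log2 difference was -2.12 ± 0.32 (SE, adjusted p = 8.82e-06), and the PD-plug effect had been -1.15 at 48 h, where the adjusted p was 0.00023. In Col-0 leaves at 48 h EXPA10 had 73.1, 69.3 and 45.0 CPM with estradiol, against 193, 124 and 168 CPM with DMSO, an effect of -1.37 ± 0.22 (SE, adjusted p = 0.000286). EXPA10 was thus called lower at 48 h in the wild type as well, so its 48 h call is not particular to the lines. GASA6 (AT1G74670), a small secreted peptide of the gibberellin-stimulated family, had 63.0, 84.9 and 118 CPM in icals3m estradiol leaves, against 278, 379 and 321 CPM in icals3m DMSO leaves. With estradiol, PD-plug leaves had 222, 238 and 256 CPM, against 300.5, 182 and 258 CPM with DMSO. No icals3m estradiol library overlapped another group, and the log2 difference was -1.83 ± 0.28 (SE, adjusted p = 1.01e-05).

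The other lower genes in the first 8 by size were AAE8, an acyl-activating enzyme with a log2 difference of -1.75, LECRK15, a lectin receptor kinase with -1.72, AT1G60590 with -1.44 and AT2G42900 with -1.29. AT1G60590 lost its call in 4 of the 12 fits that leave out a library of the comparison. It is also among the genes whose count fell under 2% of its own median in some library of the series.

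The higher persistent genes were fewer, and their median difference was 0.52, against -0.39 for the lower ones. AGO7 (AT1G69440), the Argonaute protein of the trans-acting small RNA pathway of leaf polarity, had 6.77, 5.96 and 6.72 CPM in icals3m estradiol leaves, against 3.74, 2.49 and 1.73 CPM in icals3m DMSO leaves. For PD-plug leaves the values were 2.77, 3.68 and 3.33 CPM with estradiol, against 3.91, 4.84 and 3.78 CPM with DMSO. The icals3m estradiol libraries lay above all the others, and the log2 difference was 1.64 ± 0.31 (SE, adjusted p = 0.000323). APL3 (AT4G39210), a large subunit of ADP-glucose pyrophosphorylase, the first committed enzyme of starch synthesis, had 42.7, 42.5 and 36.2 CPM in icals3m estradiol leaves, against 20.9, 20.2 and 17.2 CPM in icals3m DMSO leaves. In PD-plug leaves it had 21.0, 22.2 and 23.3 CPM with estradiol, against 23.2, 29.8 and 20.6 CPM with DMSO. The icals3m estradiol libraries lay above all other libraries, with a log2 difference of 1.21 ± 0.17 (SE, adjusted p = 1.74e-06). The gap between lines had grown since 48 h, by 1.22 ± 0.24 (SE, adjusted p = 0.00279) on the log2 scale. CML49 (AT3G10300), a calmodulin-like protein, had 56.0, 56.8 and 44.6 CPM in icals3m estradiol leaves, against 25.3, 24.9 and 26.2 CPM in icals3m DMSO leaves. PD-plug estradiol leaves had 22.6, 25.8 and 24.7 CPM, against 24.4, 24.1 and 23.9 CPM in PD-plug DMSO leaves. Its 9 other libraries lay within a few CPM of each other, and the log2 difference was 1.03 ± 0.15 (SE, adjusted p = 4.93e-06). APS4 (AT5G43780), an ATP sulfurylase of sulfate assimilation, had 92.2, 89.3 and 94.7 CPM in icals3m estradiol leaves, against 60.4, 56.5 and 53.9 CPM in icals3m DMSO leaves. The PD-plug line had 53.0, 56.1 and 53.7 CPM with estradiol, against 65.5, 57.8 and 64.4 CPM with DMSO. The icals3m estradiol libraries again lay above the rest, and the log2 difference was 0.90 ± 0.12 (SE, adjusted p = 2.83e-07). VTE4, the methyltransferase that makes alpha-tocopherol, had a log2 difference of 1.01, and SUE4, AT1G76960 and AT2G41190 had 1.08, 1.07 and 0.95. AT2G41190 lost its call in 7 of the 12 fits that leave out a library, and SUE4 in 1. In Col-0 leaves at 48 h CML49 and APS4 were called higher, with 0.33 and 0.33, AGO7 was called lower, with -1.12, and of the other genes in these 2 sets of 8 EXPA10 was called. In the authors' second matrix AT2G10940, EXPA10, AT1G60590, APL3, CML49, SUE4 and AT2G41190 were not called, and the other 9 of these 16 genes were.

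**Figure D4:**
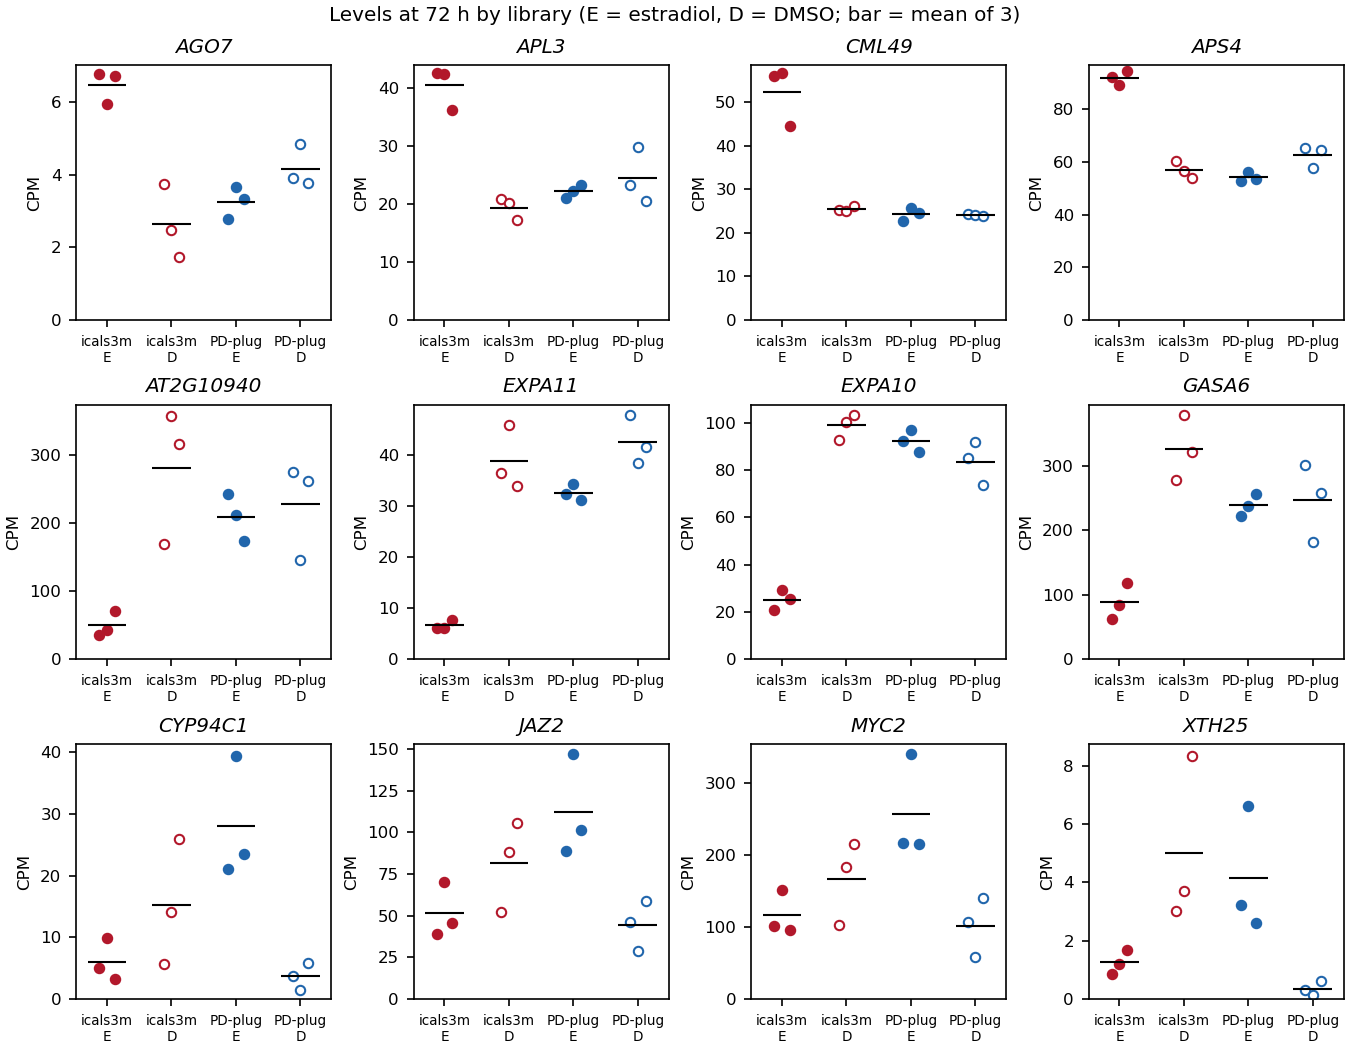
CPM at 72 h in each library for 12 genes, in icals3m estradiol, icals3m DMSO, PD-plug estradiol and PD-plug DMSO leaves; points are libraries and bars the means of 3. The icals3m estradiol libraries stand apart in the upper 8 panels (persistent genes), while in CYP94C1, JAZ2, MYC2 and XTH25 the PD-plug estradiol libraries lie above the PD-plug DMSO libraries.

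The largest differences at 72 h were also read without regard to 48 h, among called genes whose icals3m estradiol and DMSO libraries did not overlap. The 10 highest and 10 lowest of these held no member of the persistent set. That condition passed over 8 genes called lower with differences as large, among them CYP94C1, JAZ5, JAZ7 and JAZ10. Among these 10 lowest, XTH25 (AT5G57550), a xyloglucan-modifying wall enzyme, moved in opposite directions. It had 0.866, 1.201 and 1.69 CPM in icals3m estradiol leaves, against 3.03, 3.70 and 8.33 CPM in icals3m DMSO leaves. Its level in PD-plug leaves was 3.21, 6.62 and 2.62 CPM with estradiol, against 0.315, 0.149 and 0.603 CPM with DMSO. Estradiol libraries were lower than DMSO libraries in icals3m leaves and higher in PD-plug leaves, without overlap in either line, and the log2 difference was -5.59 ± 0.89 (SE, adjusted p = 2.85e-05). The icals3m and PD-plug DMSO libraries also differed, by 3.87 on the log2 scale. MAKR6 (AT5G52900), a membrane-associated kinase regulator, had 8.05, 7.62 and 11.7 CPM in icals3m estradiol leaves, against 36.0, 30.4 and 35.2 CPM in icals3m DMSO leaves. With estradiol, PD-plug leaves had 41.9, 35.9 and 34.7 CPM, against 24.6, 22.6 and 24.9 CPM with DMSO. Both lines were called, lower in icals3m and higher in PD-plug leaves, and the log2 difference was -2.53 ± 0.23 (SE, adjusted p = 7.24e-11). CYP96A4 (AT5G52320), a cytochrome P450, had 3.03, 4.40 and 2.89 CPM in icals3m estradiol leaves, against 8.04, 19.4 and 21.1 CPM in icals3m DMSO leaves. For PD-plug leaves the values were 16.1, 25.2 and 20.1 CPM with estradiol, against 11.4, 10.6 and 11.5 CPM with DMSO. Its PD-plug effect of 0.87 was not called, and the log2 difference was -3.11 ± 0.46 (SE, adjusted p = 7e-06). The other 7 were ANN4, an annexin, with -3.81, NAI1, the transcription factor of ER bodies, with -3.35, AT2G43590 with -3.14, ERF018 with -2.78, the glutaredoxin GRXS10 with -2.74, AT5G12940 with -2.70 and the DELLA protein RGL3 with -2.51. NAI1 lost its call in 6 of the 12 fits that leave out a library. In the second matrix ANN4 and NAI1 were not called, and the others of these 10 were.

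The 10 highest under the same condition were mostly genes of low level. CIPK25 (AT5G25110), a calcium sensor-interacting kinase, had 5.19, 2.64 and 3.90 CPM in icals3m estradiol leaves, against 0.526, 0.535 and 0.482 CPM in icals3m DMSO leaves. In PD-plug leaves it had 0.555, 0.658 and 1.59 CPM with estradiol, against 1.26, 1.63 and 1.56 CPM with DMSO. All 3 icals3m estradiol libraries were the highest 3 of the 12, with a log2 difference of 3.59 ± 0.80 (SE, adjusted p = 0.00267). AT1G11700 had 10.1, 10.7 and 11.3 CPM in icals3m estradiol leaves, against 2.41, 2.45 and 1.98 CPM in icals3m DMSO leaves. PD-plug estradiol leaves had 2.14, 1.701 and 2.93 CPM, against 3.99, 5.08 and 3.398 CPM in PD-plug DMSO leaves. Its icals3m estradiol libraries did not overlap any other group, and the log2 difference was 3.12 ± 0.38 (SE, adjusted p = 5.66e-08). AT3G25290 had 23.5, 14.9 and 15.2 CPM in icals3m estradiol leaves, against 3.68, 3.58 and 3.52 CPM in icals3m DMSO leaves. The PD-plug line had 3.01, 2.03 and 2.69 CPM with estradiol, against 3.10, 4.52 and 3.75 CPM with DMSO. The log2 difference was 2.87 ± 0.42 (SE, adjusted p = 2.66e-06), and all 3 icals3m estradiol libraries were the highest. SAUR41 and SAUR71, small auxin-induced proteins, had 2.58 and 2.80, AT3G44450 had 2.88 and CALS3 itself 2.54. SAUR41 lost its call in 1 and SAUR71 in 5 of the 12 fits that leave out a library. NAS3, a nicotianamine synthase, had 4.52 and JAL4, a jacalin lectin, 2.51. They lost their calls in 8 and 9 of the 12 fits that leave out a library, and neither was called in the second matrix. AT2G24945 had 121, 91.6 and 106 CPM in icals3m estradiol leaves, against 4.36, 4.96 and 3.61 CPM in icals3m DMSO leaves. Its level in PD-plug leaves was 120.4, 87.6 and 98.0 CPM with estradiol, against 95.1, 111 and 86.7 CPM with DMSO. Here the icals3m DMSO libraries were the low ones, and the other 9 lay together. Its log2 difference of 4.55 lost its call in 8 of those 12 fits, and it too falls under 2% of its median in some libraries of the series.

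Repressors of the auxin response were called lower mainly in icals3m leaves. Aux/IAA proteins repress auxin response genes and are themselves induced by auxin. Of the 14 tested, 4 were called lower in the difference, where 3.11% of all genes were. The list leaves out IAA8, which is in the persistent set, and 0 of the 14 are in that set. In icals3m leaves at 72 h 9 of the 14 were called lower (11.1% of all genes), against 1 in PD-plug leaves (1.25% of all genes). At 48 h 4 of the 14 were called lower in icals3m leaves and 0 in PD-plug leaves, where 9.06% and 7.62% of all genes were. The median PD-plug effect of the list was -0.074 at 48 h and -0.075 at 72 h, so the list gave no fading in PD-plug leaves. IAA7 (AT3G23050) had 26.6, 28.9 and 27.3 CPM in icals3m estradiol leaves, against 48.6, 62.4 and 55.5 CPM in icals3m DMSO leaves. With estradiol, PD-plug leaves had 47.5, 45.5 and 50.8 CPM, against 50.6, 44.6 and 52.5 CPM with DMSO. Libraries of icals3m estradiol leaves lay below the other 9, which overlapped, and the log2 difference was -0.97 ± 0.13 (SE, adjusted p = 1.23e-06). In the second matrix IAA7 had -0.97 and was not called (adjusted p = 0.204). IAA14 (AT4G14550) had 3.22, 3.604 and 4.39 CPM in icals3m estradiol leaves, against 10.0, 12.1 and 12.1 CPM in icals3m DMSO leaves. For PD-plug leaves the values were 8.74, 8.41 and 8.82 CPM with estradiol, against 6.84, 7.59 and 9.95 CPM with DMSO. The same group was the lowest, with a log2 difference of -1.70 ± 0.34 (SE, adjusted p = 0.000878). IAA16 had -0.70 ± 0.098 (SE, adjusted p = 1.74e-06) and IAA2 -0.53 ± 0.14 (SE, adjusted p = 0.0123). Of 28 xyloglucan-modifying and expansin genes, 4 were called lower in the difference (3.11% of all genes), EXPA3, EXPA10, EXPA11 and XTH25, and XTH16 was called higher with 1.24 ± 0.30 (SE, adjusted p = 0.00565). In icals3m leaves 9 of the 28 were called lower at 72 h (11.1% of all genes) and 9 at 48 h (9.06%). The PD-plug line had 2 called lower at 72 h (1.25% of all genes) and 5 at 48 h (7.62%). EXPA3 had -1.04 ± 0.26 (SE, adjusted p = 0.00726), and its PD-plug effect was already -0.21 and not called at 48 h.

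Carbon fixation genes were called lower in both lines at 48 h and mainly in icals3m leaves at 72 h. At 48 h 13 of 19 Rubisco and Calvin cycle genes were called lower in icals3m leaves and 15 in PD-plug leaves, where 9.06% and 7.62% of all genes were. At 72 h 15 were called lower in icals3m leaves (11.1% of all genes), against 1 in PD-plug leaves (1.25% of all genes). The median effect of the list was -0.26 in icals3m and -0.35 in PD-plug leaves at 48 h, and -0.38 and -0.15 at 72 h. The rise of the PD-plug effect after 48 h was itself called for 1 of the 19, where 4.16% of all genes were. Fading in PD-plug leaves was thus not shown gene by gene, and 3 of the 19 are in the persistent set. The difference was negative for 18 of the 19 and was called lower for 4, where 3.11% of all genes were. GAPA1 (AT3G26650), a subunit of the chloroplast glyceraldehyde-3-phosphate dehydrogenase, had 1933, 2071 and 2244 CPM in icals3m estradiol leaves, against 2975, 3125 and 3042 CPM in icals3m DMSO leaves. In PD-plug leaves it had 2742, 2784 and 2895 CPM with estradiol, against 3029, 2777 and 3026 CPM with DMSO. Its icals3m estradiol libraries lay below the other 9, and the log2 difference was -0.48 ± 0.084 (SE, adjusted p = 8.53e-05). Rubisco activase, RCA (AT2G39730), had 4663, 4873 and 5337 CPM in icals3m estradiol leaves, against 7687, 7651 and 7755 CPM in icals3m DMSO leaves. PD-plug estradiol leaves had 6813, 6640 and 7021 CPM, against 7883, 6943 and 8033 CPM in PD-plug DMSO leaves. The same 3 libraries were the lowest, with a log2 difference of -0.48 ± 0.11 (SE, adjusted p = 0.0039). RBCS1A, a small subunit of Rubisco, had -0.28 ± 0.084 (SE, adjusted p = 0.0337) and the epimerase RPE -0.36 ± 0.11 (SE, adjusted p = 0.04). In the second matrix RBCS1A had 0.40 (adjusted p = 0.895) and RPE -1.05 (adjusted p = 0.641). These last calls were lost in 7 and 9 of the 12 fits that leave out a library.

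Most photosystem and antenna genes were called lower in both lines at 72 h. At 72 h 31 of 40 were called lower in icals3m leaves and 24 in PD-plug leaves, where 11.1% and 1.25% of all genes were. At 48 h 8 were called higher and 3 lower in icals3m leaves, where 9.25% and 9.06% of all genes were. In PD-plug leaves 4 were called higher and 4 lower, where 5.66% and 7.62% of all genes were. The difference was called lower for 4, where 3.11% of all genes were. LHCB5 (AT4G10340), a minor antenna protein of photosystem II, had 1938, 1946 and 2028 CPM in icals3m estradiol leaves, against 3305, 3553 and 3223 CPM in icals3m DMSO leaves. The PD-plug line had 2780, 2727 and 2693 CPM with estradiol, against 3560, 3069 and 3414 CPM with DMSO. Both lines fell and icals3m leaves fell further, with a log2 difference of -0.48 ± 0.095 (SE, adjusted p = 0.000637). PSBQ1 had -0.42 ± 0.096 (SE, adjusted p = 0.00361), against 0.91 in the second matrix (adjusted p = 0.584). PSBTN had -0.37 ± 0.091 (SE, adjusted p = 0.00762) and PSBW -0.32 ± 0.084 (SE, adjusted p = 0.0126). LHCB5 and PSBW were not called in the second matrix, and PSBTN was. PSBW lost its call in 2 and PSBTN in 1 of the 12 fits that leave out a library.

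Of 24 sugar transport genes, 6 were called lower and 1 higher in the difference, where 3.11% of all genes were lower and 2.25% higher. SWEET11 and SWEET12 export sucrose from leaf cells for loading into the phloem. SWEET12 (AT5G23660) had 61.5, 63.6 and 73.0 CPM in icals3m estradiol leaves, against 125, 118 and 128 CPM in icals3m DMSO leaves. Its level in PD-plug leaves was 118, 126 and 113 CPM with estradiol, against 102, 104 and 111 CPM with DMSO. All 3 icals3m estradiol libraries lay below the other 9, with a log2 difference of -1.07 ± 0.20 (SE, adjusted p = 0.000403). SWEET11 (AT3G48740) had -0.64 ± 0.098 (SE, adjusted p = 6.47e-06). SUC1 (AT1G71880), a sucrose-proton symporter, had 90.6, 84.5 and 89.5 CPM in icals3m estradiol leaves, against 39.2, 43.8 and 40.6 CPM in icals3m DMSO leaves. With estradiol, PD-plug leaves had 35.2, 39.3 and 49.9 CPM, against 41.6, 44.9 and 33.0 CPM with DMSO. Libraries of icals3m estradiol leaves were the highest here, and the log2 difference was 1.04 ± 0.21 (SE, adjusted p = 0.00114). SWEET11, SWEET12 and SUC1 were already called in icals3m leaves at 48 h and were not called in PD-plug leaves then. At the vacuole, the sugar importer TMT1 had -0.87 ± 0.15 (SE, adjusted p = 4.94e-05), with the lines called in opposite directions. ERDL6, which exports glucose from the vacuole, had -0.60, SWEET16 -2.11 and the vacuolar invertase VI2 -0.75. The last was lost in 8 of the 12 fits that leave out a library. For starch and starvation lists the same shares of all genes apply. In starch metabolism, 2 of 18 synthesis genes were called higher, APL3 and the branching enzyme SBE2.2 with 0.42 ± 0.084 (SE, adjusted p = 0.000742), and the starch synthase SS4 was called lower with -0.42 ± 0.11 (SE, adjusted p = 0.00888). Of 20 breakdown genes, DPE2, which processes maltose in the cytosol, was called higher with 0.66 ± 0.11 (SE, adjusted p = 2.28e-05) and the beta-amylase BAM2 lower with -0.42 ± 0.13 (SE, adjusted p = 0.0438). BAM2 lost its call in 8 and TPS5 in 6 of the 12 fits that leave out a library. In the second matrix SWEET16, VI2, APL3, SBE2.2, BAM2 and TPS5 were not called. Of 20 genes of sugar starvation, 10 were called higher in icals3m leaves at 48 h (9.25% of all genes) and 1 at 72 h (10.4% of all genes). In the difference at 72 h TPS5 was called higher and TPS11 lower. In 8 of the 20 the icals3m DMSO libraries were called higher than the PD-plug DMSO libraries at 72 h, where 1.41% of all genes were.

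Most calls of jasmonate genes at 72 h lay in PD-plug leaves. Jasmonate is a wound and defence hormone. JAZ proteins repress its responses, MYC2 is the transcription factor they hold back, and CYP94C1 oxidises the active hormone. At 72 h 2 of 25 genes of jasmonate synthesis and response were called higher in icals3m leaves (10.4% of all genes), against 13 in PD-plug leaves (1.39% of all genes). At 48 h 11 were called higher in icals3m leaves (9.25% of all genes), against 1 in PD-plug leaves (5.66% of all genes). In the difference at 72 h 10 were called lower, where 3.11% of all genes were: LOX4, JAZ1, JAZ2, JAZ5, JAZ6, JAZ7, JAZ9, JAZ10, MYC2 and CYP94C1. CYP94C1 (AT2G27690) had 4.98, 9.91 and 3.26 CPM in icals3m estradiol leaves, against 5.68, 14.2 and 26.0 CPM in icals3m DMSO leaves. For PD-plug leaves the values were 21.1, 39.4 and 23.55 CPM with estradiol, against 3.78, 1.495 and 5.81 CPM with DMSO. PD-plug estradiol libraries lay above PD-plug DMSO libraries without overlap, and the icals3m groups overlapped. The log2 difference was -4.27 ± 0.84 (SE, adjusted p = 0.000647). JAZ2 (AT1G74950) had 39.3, 70.2 and 45.9 CPM in icals3m estradiol leaves, against 52.0, 88.2 and 106 CPM in icals3m DMSO leaves. In PD-plug leaves it had 88.8, 147 and 102 CPM with estradiol, against 46.5, 29.1 and 58.5 CPM with DMSO. The pattern was the same, with a log2 difference of -1.99 ± 0.36 (SE, adjusted p = 0.000183). MYC2 (AT1G32640) had 102, 151 and 96.2 CPM in icals3m estradiol leaves, against 103, 183 and 215 CPM in icals3m DMSO leaves. PD-plug estradiol leaves had 217, 340.3 and 215 CPM, against 107, 58.8 and 141 CPM in PD-plug DMSO leaves. The second PD-plug estradiol library was the highest of the 12, and the log2 difference was -1.86 ± 0.47 (SE, adjusted p = 0.00932). In 5 of the 25 genes the icals3m DMSO libraries were called higher than the PD-plug DMSO libraries, where 1.41% of all genes were. The third icals3m DMSO library was the highest of its group in each of the 3 genes above. Without it 4 of the 25 were called lower in the difference, and without the second PD-plug DMSO library also 4. In a fit of the 12 libraries alone 1 was called lower, and in the second matrix 5. The part of the third icals3m DMSO library in the result was not tested further.

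Indole glucosinolate genes, which make defence compounds from tryptophan, were called lower in the difference in 5 of 18, where 3.11% of all genes were. CYP79B2 and CYP79B3 carry out the first step. CYP79B2 (AT4G39950) had 5.74, 10.1 and 6.71 CPM in icals3m estradiol leaves, against 17.3, 25.0 and 21.6 CPM in icals3m DMSO leaves. The PD-plug line had 26.0, 39.9 and 21.4 CPM with estradiol, against 18.25, 18.3 and 19.9 CPM with DMSO. All 3 icals3m estradiol libraries were the lowest, below the other 9, and the log2 difference was -2.14 ± 0.34 (SE, adjusted p = 2.82e-05). CYP79B3 had -1.53 ± 0.27 (SE, adjusted p = 0.000128) and the next enzyme, CYP83B1, -1.04 ± 0.20 (SE, adjusted p = 0.000403), and in both the lines were called in opposite directions. The tryptophan synthesis enzyme ASA1 had -0.68 and the sulfotransferase SOT16 -0.69, and neither was called in icals3m leaves. They lost their calls in 2 and 8 of the 12 fits that leave out a library, and neither was called in the second matrix.

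Some salicylic acid genes were called higher in each line at 72 h, and the difference was called for none. Of 12 genes of salicylic and pipecolic acid synthesis, 6 were called higher in icals3m leaves and 3 in PD-plug leaves at 72 h, where 10.4% and 1.39% of all genes were. Of 19 response genes 9 were called higher in icals3m leaves and 5 in PD-plug leaves. At 48 h 3 synthesis and 3 response genes were called higher in icals3m leaves, against 6 and 11 in PD-plug leaves, where 9.25% and 5.66% of all genes were. In the difference the main edgeR fit and DESeq2 called none of the 12 and none of the 19. Among the alternative fits, up to 1 of the 19 was called higher. At an unadjusted p under 0.05 the difference passed for 0 of the 12 and 2 of the 19. ICS1 (AT1G74710), the isochorismate synthase that makes the hormone's precursor, had 12.5, 7.96 and 8.96 CPM in icals3m estradiol leaves, against 4.45, 3.93 and 4.05 CPM in icals3m DMSO leaves. Its level in PD-plug leaves was 7.51, 7.13 and 7.52 CPM with estradiol, against 3.57, 5.38 and 3.62 CPM with DMSO. Estradiol libraries lay above DMSO libraries in both lines, and the log2 difference was 0.43 ± 0.22 (SE, adjusted p = 0.304). PR2 (AT3G57260), a response gene, had 44.5, 12.3 and 11.8 CPM in icals3m estradiol leaves, against 0.601, 0.576 and 0.771 CPM in icals3m DMSO leaves. With estradiol, PD-plug leaves had 13.6, 11.1 and 20.8 CPM, against 1.26, 0.598 and 1.48 CPM with DMSO. Both lines rose, each without overlap between treatments, and the log2 difference was 1.34 ± 1.06 (SE, adjusted p = 0.57). ICS1 and PR2 were chosen after their values were seen. A p-value above the threshold does not show that the lines acted alike.

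Of 28 abscisic acid and dehydration genes 2 were called lower in the difference (3.11% of all genes), the dehydration-responsive RD22 with -1.61 ± 0.20 (SE, adjusted p = 3.62e-07) and the proline synthesis enzyme P5CS1 with -1.02 ± 0.24 (SE, adjusted p = 0.00617). RD22 (AT5G25610) had 79.1, 80.3 and 69.6 CPM in icals3m estradiol leaves, against 202, 201 and 187 CPM in icals3m DMSO leaves. For PD-plug leaves the values were 252, 219.7 and 267 CPM with estradiol, against 201, 238 and 185 CPM with DMSO. Libraries of icals3m estradiol leaves lay far below the other 9. P5CS1 was not called in the second matrix (-0.50, adjusted p = 0.928). At 48 h 6 of the 28 were called higher in icals3m leaves (9.25% of all genes), against 11 in PD-plug leaves (5.66%). At 72 h 12 were called lower in icals3m leaves (11.1%), against 4 in PD-plug leaves (1.25%). The drop of the PD-plug effect between these times was called for 11, where 2.51% of all genes were. The nitrate transporter NRT1.1 had 1.03 ± 0.21 (SE, adjusted p = 0.000929) and NRT1.7 0.36 ± 0.099 (SE, adjusted p = 0.02), as the called members of 20 nitrogen genes, where 2.25% of all genes were called higher. NRT1.7 lost its call in 4 of the 12 fits that leave out a library. The chlorophyll breakdown enzyme PAO had 0.50 ± 0.098 (SE, adjusted p = 0.000468) among 22 senescence genes, of which NAC019 and NAC055 were called lower and lost their calls in 7 and 5 of those fits. Single members were called in other lists, where 2.25% of all genes were called higher and 3.11% lower. They were BCAT3 (higher) and UGT74C1 (lower) of 18 aliphatic glucosinolate genes, BEE1 of 15 brassinosteroid genes, PIP2B of 13 aquaporins and GSTU5 of 32 glutathione transferases (all lower). BCAT3 and PIP2B each lost their call in 7 and UGT74C1 in 8 of those 12 fits. NRT1.7, NAC019, BEE1, BCAT3 and PIP2B were not called in the second matrix. EGL3, of 19 anthocyanin genes, was called lower at levels of at most 0.385 CPM and has no usable fold change. In callose synthases CALS3 alone of 11 was called. Neither the main edgeR fit nor DESeq2 called a member among 15 plasmodesmal proteins, 18 heat shock genes and 15 clock genes. Of these 5, 0 and 2 had an unadjusted p under 0.05. Among the alternative fits, up to 2 plasmodesmal proteins were called lower.

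**Figure D5:**
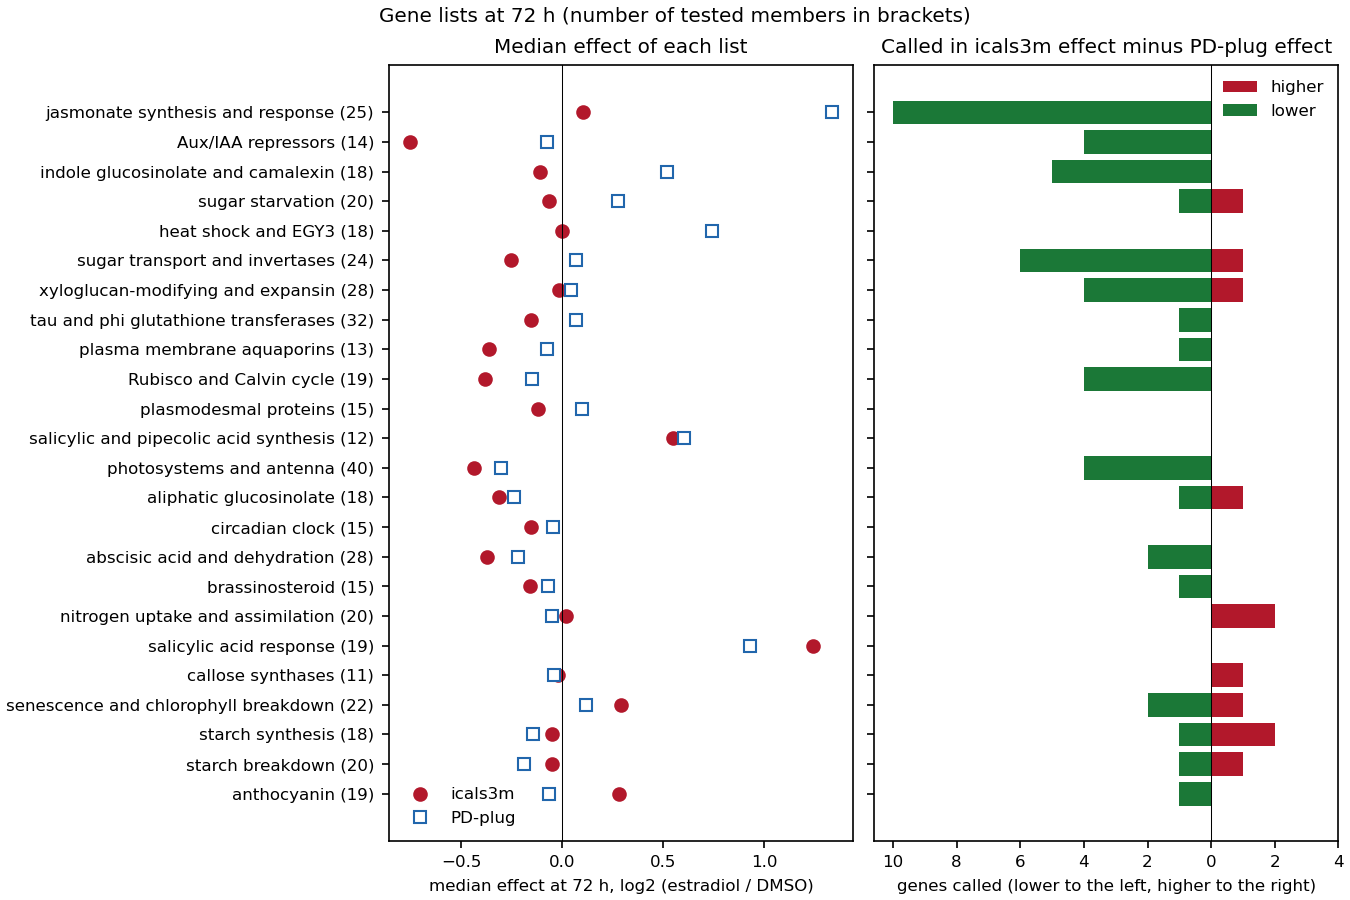
Left, the median effect at 72 h (log2 estradiol over DMSO) of each gene list in icals3m (circles) and PD-plug (squares) leaves; right, how many members were called lower (left of 0) or higher (right of 0) in the difference between these effects. Jasmonate genes had the most members called lower (10 of 25), with medians of 0.10 in icals3m and 1.34 in PD-plug leaves, and the salicylic acid lists had none called.

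Cell type markers moved with some of these groups. The summed level of 5 mesophyll markers was 21400 to 23360 CPM in icals3m estradiol leaves, against 31810 to 33820 CPM in icals3m DMSO leaves. It was 29730 to 30530 CPM in PD-plug estradiol leaves, against 31380 to 36650 CPM in PD-plug DMSO leaves. Of these markers RBCS1A and RCA were called lower in the difference, and both are also in the carbon fixation list. The summed level of 5 epidermis markers was 224 to 238 CPM in icals3m estradiol leaves, against 310 to 335 CPM in icals3m DMSO leaves. It was 284 to 306 CPM in PD-plug estradiol leaves, against 302 to 314 CPM in PD-plug DMSO leaves. ATML1 and PDF2, transcription factors of epidermal identity, had log2 differences of -0.72 ± 0.15 (SE, adjusted p = 0.00117) and -0.65 ± 0.13 (SE, adjusted p = 0.000829), and the wax transporter CER5 -0.43 ± 0.11 (SE, adjusted p = 0.0135). Of 6 guard cell markers MYB60 and GC1 were called higher, with their PD-plug effects called lower. In the second matrix ATML1, PDF2, MYB60 and GC1 were not called, and CER5 was. Neither phloem (6), xylem (5), dividing cell (4) nor flower (3) markers held a member called in the difference by the main edgeR fit or by DESeq2. At an unadjusted p under 0.05 there were 3, 0, 0 and 1. In the second matrix 1 phloem marker was called lower. Of 4 root markers 2 had 0 counts in all 12 libraries. The part of these shifts in the other results was not tested.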

How the data were processed

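RNA-seq was run on leaves of 3 genotypes, and 72 libraries of 24 groups were fitted together. Per the labels and file contents, the authors deposited 2 gene count matrices. The main one, as deposited by the authors, holds expected counts per gene (estimated counts given as whole numbers, with no normalization); a value of 4 fills 40727 cells, against 8585 for 3 and 10399 for 5. The submitters' processing notes name the build TAIR10 and FastQC 0.11.8, Trim Galore 0.5.0, cutadapt 1.7, HISAT2 2.1.0, STAR 2.5, SAMtools 1.4.1 and StringTie 1.3.3, with no roles. The second matrix carries STAR in its name. Beyond that name, which of the tools made which matrix is not given in the sources used here. Whether strand was used is not given either, so overlapping genes and near-identical copies are uncertain.

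Of 33602 genes, 21241 passed edgeR's expression filter (minimum count 10, minimum total 15). Counts were scaled by TMM and tested with edgeR 4.0.16 (R 4.3.3) by the quasi-likelihood test with robust, trended dispersion (48 residual degrees of freedom, biological coefficient of variation 0.167), and p-values were adjusted by Benjamini-Hochberg over all genes tested. A standard error is the absolute log2 value divided by the square root of F. CPM values use TMM-scaled library sizes. P-values rest on the spread between samples of pooled leaves within a group. That spread was estimated over all 24 groups, not from the 3 libraries of a compared group alone. The scripts were tested on simulated data.

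Named genes were the 10 highest and 10 lowest called differences among genes whose icals3m estradiol libraries all lay beyond the icals3m DMSO libraries in that direction, the 8 persistent genes in each direction with the largest difference, all with a mean of at least 1 CPM, and called members of the lists. Members and lists were chosen with earlier results of these data known. Alternatives were DESeq2 1.42.0, its size factors, no filter, counts divided by 4, a replicate block, the 12 libraries alone, the second matrix, and leaving out each library. No sequence or coordinate is printed.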

Additional observations from a re-analysis of the deposited data

Results flagged for a closer look

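The effects of the lines differed by a test of the difference itself in 1137 genes at 72 h. The persistent set of 173 genes was chosen by that test and is no further evidence. The effect also differed between 72 h and 48 h in 2170 genes in icals3m leaves and in 1418 genes in PD-plug leaves, and the difference between lines moved over that time in 370 genes.

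In 8 of the genes named, both lines were called at 72 h in opposite directions. The log2 differences were -5.59 for XTH25, -2.53 for MAKR6, 0.42 for SBE2.2, -0.87 for TMT1 (MSSP1), -0.60 for ERDL6 (AT1G75220), -0.88 for GSTU5, -1.53 for CYP79B3 and -1.04 for CYP83B1.

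The mCherry row of the authors' second matrix, which no gene comparison uses, averaged 3406 CPM in PD-plug estradiol leaves at 72 h.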

How the results depend on the processing

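The largest shift came with the authors' second matrix: 407 genes were called in the difference at 72 h (154 higher, 253 lower), 2201 in icals3m and 250 in PD-plug leaves, 363 genes were shared at 48 h, of which 186 were called in icals3m leaves, 21 in PD-plug leaves and 31 in the difference at 72 h, and the persistent set held 30 genes (7 higher, 23 lower). It kept 387 of the 1137 and 26 of the 173 genes. Of the 95 genes named by rule, CALS3 aside, 55 kept their call there, 37 lost it and 3 changed sign. The signs of AT2G10940 (5.03), RBCS1A (0.40) and PSBQ1 (0.91) were reversed there, none of them called; the cause was not tested. In that matrix 462 of 11350 well-counted genes had a library under 2% of their median, against 121 of 14095 in the main one.

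Leaving out single libraries gave 680 to 1160 genes in the difference (274 to 482 higher, 392 to 678 lower), 3450 to 4573 in icals3m leaves and 208 to 576 in PD-plug leaves. The PD-plug count was 310 without its second estradiol library, 308 without the third and 208 without the first DMSO library. The shared set ranged over 848 to 1160, with 434 to 578 called in icals3m leaves, 21 to 86 in PD-plug leaves and 100 to 224 in the difference at 72 h. The persistent set ranged over 89 to 204 (23 to 47 higher, 59 to 157 lower).

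DESeq2 called 1291 genes in the difference, its size factors 1118, no filter 1013, counts divided by 4 1307 and the 12 libraries alone 1270. The replicate numbers did not pair the samples: 18 correlations between same-numbered libraries lay between -0.0969 and 0.0507. With the replicate block 1131 genes were called in the difference and the persistent set held 179.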

Other observations

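Some families and genes were looked at after their values were seen, and they are given as values only. Over all genes tested, 2.25% were called higher and 3.11% lower in the difference at 72 h. Of 20 SAUR genes, which encode small auxin-induced proteins, 3 were called higher in the difference at 72 h. The log2 differences were 2.07 for SAUR15, 2.58 for SAUR41 and 2.80 for SAUR71. SAUR41 and SAUR71 lost their calls in 1 and 5 of the 12 fits that leave out a library. Of the 14 Aux/IAA genes listed, also auxin-induced, 4 were called lower in the same comparison and 3 had a positive difference. IAA8 is not among the 14. Of 26 CIPK kinases, which act with calcium sensors, 4 were called higher and 2 lower. Of 5 annexins, ANN4 and ANN3 were called lower, with -3.81 and -2.22.

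Single genes of the persistent set were also picked after their values were seen, and they stand for no theme. The log2 difference was 0.82 ± 0.18 (SE, adjusted p = 0.00262) for the calcium-dependent kinase CPK6, 0.75 ± 0.17 (SE, adjusted p = 0.00274) for the calmodulin-like CML9 and 0.48 ± 0.13 (SE, adjusted p = 0.0148) for the MAP kinase MPK3. Of the lower genes, the difference was -1.09 ± 0.19 (SE, adjusted p = 6.27e-05) for EPFL9, the peptide that promotes stomata, -0.92 ± 0.20 (SE, adjusted p = 0.00289) for LNG2, which regulates cell elongation, and -0.84 ± 0.11 (SE, adjusted p = 5.64e-07) for IAA8. LNG1 had -2.09 ± 0.35 (SE, adjusted p = 4.78e-05) and is not in the set, since its PD-plug effect of -0.24 at 48 h was not called.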
